A study of Homo sapiens with 4 samples.

Results

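The hepatocyte nuclear factors are the transcription factors that set up and keep the gene expression of liver cells. The 8 genes described here are HNF4A, HNF4G, FOXA1, FOXA2, FOXA3, CEBPA, ONECUT1 and PROX1. They were chosen by name, and each was read from the transcript model with the most reads over the 4 libraries. All 8 were found, under 16 of the 58146 transcript models and among 42067 gene names. RNA came from Huh7, an established human hepatocellular carcinoma line grown in serum-containing medium. One group had been given 300 µM hydrogen peroxide (H2O2) for 4 days, and the other was mock-treated for 4 days, with the medium replaced daily in both. Each group had 2 libraries, and the titles marked 1 library of each group H and the other Q. The sources used here do not say what the letters stand for. Nothing in the labels says that the libraries came from separate cultures, so the p-values measure the spread between these libraries, which may be technical.

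HNF4A and its relative HNF4G are nuclear receptors that bind DNA in the control regions of many hepatocyte genes. FOXA1, FOXA2 and FOXA3 are forkhead proteins that can bind closed chromatin and open it for other factors. CEBPA is a leucine zipper protein that promotes metabolic functions and restrains cell division. ONECUT1, also called HNF6, acts in the developing liver and bile duct, and PROX1 is a homeobox protein needed for early hepatocytes and a partner of HNF4A. These factors bind one another's promoters, and HNF4A is read from a pair of alternative promoters, P1 (the main one of adult liver) and P2 (used in fetal liver, gut and pancreas).

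The promoters of HNF4A are shown because its transcript models below differ by them. Both lie on chromosome 20, plus strand, and run from 250 bases before to 50 bases after a RefSeq transcription start (GRCh38.p14). P1 is at chr20:44400989-44401288 and P2 at chr20:44355449-44355748. Capitals mark the half-site of the HNF1 factors, ATTAAC, and the core of the ONECUT1 site, ATCAAT, each on either strand, so that ATTGAT is a match of the second.
HNF4A P1 promoter: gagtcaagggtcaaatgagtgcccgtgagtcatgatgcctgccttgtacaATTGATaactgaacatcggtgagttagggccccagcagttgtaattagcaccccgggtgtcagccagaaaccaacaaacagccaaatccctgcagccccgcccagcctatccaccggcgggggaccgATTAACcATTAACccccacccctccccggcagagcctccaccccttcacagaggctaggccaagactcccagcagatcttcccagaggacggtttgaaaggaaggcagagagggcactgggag
HNF4A P2 promoter: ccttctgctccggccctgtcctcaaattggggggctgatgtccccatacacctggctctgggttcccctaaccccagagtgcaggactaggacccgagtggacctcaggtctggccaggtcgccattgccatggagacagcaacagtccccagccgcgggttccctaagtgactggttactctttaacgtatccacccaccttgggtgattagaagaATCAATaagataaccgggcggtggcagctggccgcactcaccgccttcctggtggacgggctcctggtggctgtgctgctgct

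P1 held ATTAAC at 2 places, 178 and 185 bases from the left end, and ATCAAT at 1, on the other strand. P2 held ATCAAT at base 218 and no exact ATTAAC. Of 35116 RefSeq promoters of the same length, 6.88% held ATTAAC and 6.26% held ATCAAT. Of the FOXA1, FOXA3, CEBPA and ONECUT1 promoters, also in the table, 0 held either. The FOXA core was searched as TGTTTAC and as TGTTTGC, the HNF4 site as CAAAGTCCA and the C/EBP site as TTGCNNAA. Their shares of all promoters were 3.42%, 3.89%, 0.384% and 10.5%. The 1 match among the 6 promoters of these genes was TGTTTGC in that of FOXA1. These matches describe the letters and do not show binding.

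The libraries held 78126878 to 88409567 mapped mates, and 87.4% to 91.7% of mates were mapped. With 1 model per gene they held 103851326 to 113082498 tabulated reads, since a read could be counted more than once. Levels are TMM-normalised CPM (read counts relative to the scaled size of each library), and differences are log2 of H2O2 over mock. Huh7 identity was checked on hepatocyte and hepatoma markers, of which 10 of 10 were measured and 0 lay below 1 CPM in every library. Their summed level was 10010.0 to 21950.0 CPM in mock and 15710.0 to 24030.0 CPM in H2O2. Of 6 markers each, 4 endothelial, 4 stromal and 4 blood markers lay below 1 CPM in every library, and the leukocyte antigen PTPRC did not exceed 0.277 CPM. Bile duct markers summed to 518 CPM (H) and 875 CPM (Q) in mock and to 324 CPM (H) and 664 CPM (Q) in H2O2. SPP1 alone held 102 and 572 CPM of this in mock and 124 and 479 CPM in H2O2 (H, then Q), and SOX9 and EPCAM most of the rest. The bile duct keratins were low, with KRT19 at most 0.512 CPM and KRT7 at most 2.85 CPM.

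After H2O2 none of the 8 factors passed the test, and 0 of 21130 genes did (edgeR, 5% adjusted, 0%). At an unadjusted p below 0.05 edgeR counted 1509 genes (7.14%), with 0 of the 8 factors. DESeq2 called 171 genes (0.809%), again with 0 of the factors. By the fitted value 6 of 8 factors were lower in H2O2, beside 52.1% of all genes, and 2 of 8 were higher, beside 47.9%, and their median was −0.23 beside −0.019 for all genes. In bulk RNA, fewer cells of a type and less RNA per cell cannot be told apart. An exact permutation of 2 libraries against 2 cannot give a two-sided p below 0.333, so the ratios and model differences below, which are outside the edgeR fit, are given without a test.

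HNF4A, on chromosome 20, plus strand, stood at 424 CPM (H) and 231.5 CPM (Q) after mock treatment, and at 213 CPM (H) and 206.5 CPM (Q) after H2O2. Both H2O2 libraries lay below both mock libraries, and mock library H stood well above the other 3. The group means were 328 ± 136 and 210 ± 4.59 CPM (SD, n = 2), a log2 difference of −0.64 (SE 0.33, edgeR, adjusted p = 0.697). Its 95% interval ran from −1.50 to 0.21. Within letter H the difference was −0.99, and within letter Q it was −0.16. Without mock library H it was −0.15. HNF4A was the 1 factor of 8 whose groups did not overlap on the low side, and 21.8% of all genes lay that way.

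HNF4G, on chromosome 8, plus strand, encodes the second HNF4 receptor. It measured 28.8 and 18.8 CPM in mock and 23.0 and 15.8 CPM in H2O2, in the order H and Q. The H libraries were the higher in both groups, and the groups overlapped. The log2 difference was −0.29 (SE 0.31, edgeR, adjusted p = 0.814), and without mock library H it was 0.044. Within a library HNF4A held 14.7, 12.3, 9.26 and 13.1 times the reads of HNF4G (mock H, mock Q, H2O2 H, H2O2 Q). H2O2 library H had the lowest ratio, and the groups overlapped.

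CEBPA, on chromosome 19, minus strand, varied most between libraries. Mock levels were 474 CPM (H) and 147.5 CPM (Q), and H2O2 levels 258 CPM (H) and 140.5 CPM (Q). The difference between letters was larger than that between groups, at −1.68 for Q against H in mock and −0.88 in H2O2. The log2 difference of H2O2 from mock was −0.64 (SE 0.62, edgeR, adjusted p = 0.797), with an interval from −2.22 to 0.94. Without mock library H it was 0.43, and without mock library Q it was −1.26.

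**Figure D1:**
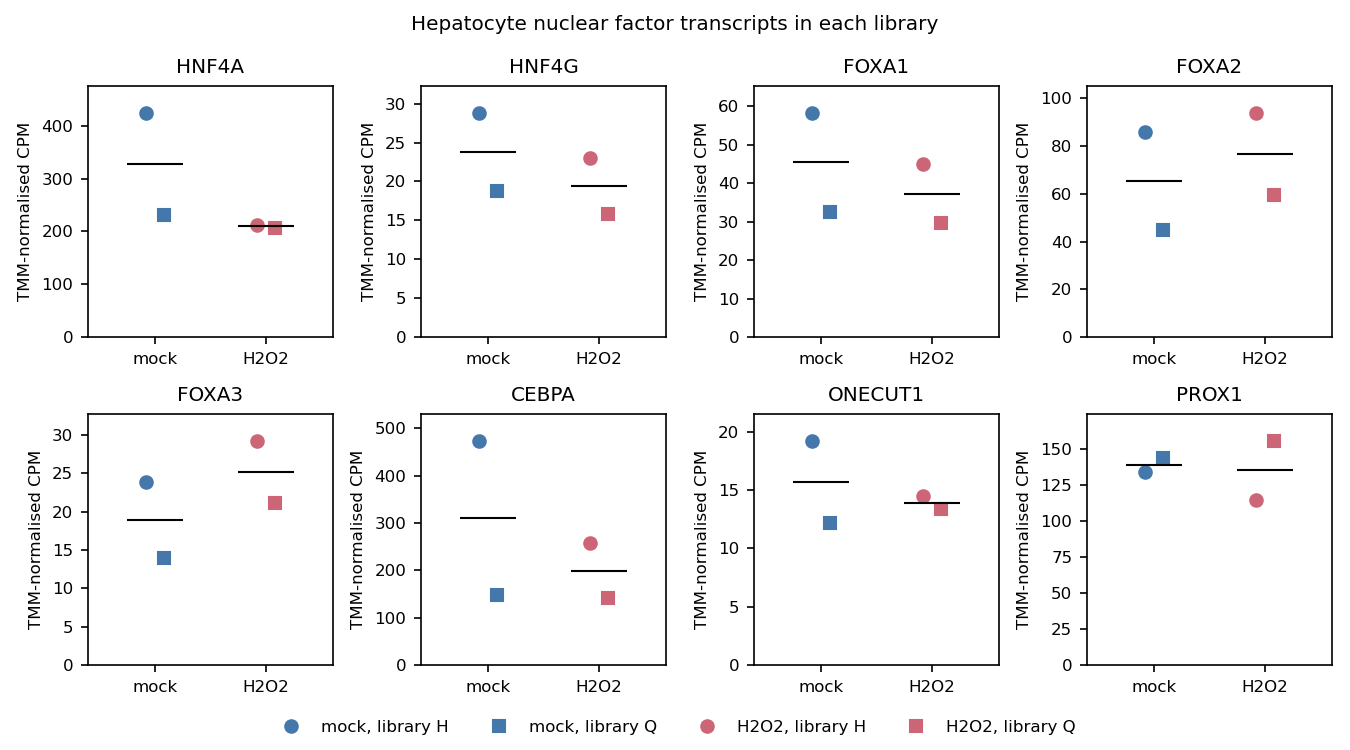
TMM-normalised CPM (vertical axes, from 0) of the 8 factors in the 2 mock and 2 H2O2 libraries, with circles for letter H, squares for letter Q and a line at each group mean. HNF4A is at 424 CPM in mock library H and between 206.5 and 231.5 CPM in the others, and the H circle lies above the Q square in both groups for every factor except PROX1.

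Of the forkhead genes, FOXA1, on chromosome 14, minus strand, measured 58.3 and 32.6 CPM in mock and 44.9 and 29.6 CPM in H2O2 (H, then Q). FOXA2, on chromosome 20, minus strand, measured 85.9 and 44.9 CPM in mock and 94.0 and 59.5 CPM in H2O2. FOXA3, on chromosome 19, plus strand, measured 23.9 and 13.95 CPM in mock and 29.3 and 21.1 CPM in H2O2. In each of these genes the H library was the higher in both groups and the groups overlapped. FOXA1 was lower in H2O2 within both letters, and FOXA2 and FOXA3 were higher within both. The fitted differences were −0.29 (SE 0.36) for FOXA1, 0.23 (SE 0.39) for FOXA2 and 0.41 (SE 0.34) for FOXA3. None passed (edgeR, adjusted p = 0.841, 0.877 and 0.772). Without mock library H the value of FOXA1 was 0.19, and without mock library Q that of FOXA2 was −0.17.

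The forkhead genes differed less between the letters when set against each other within a library, where no scaling of library size enters. In mock, FOXA2 had 1.47 (H) and 1.38 (Q) times the reads of FOXA1, and in H2O2 it had 2.09 (H) and 2.01 (Q) times. FOXA3 had 0.411 and 0.429 times the reads of FOXA1 in mock and 0.652 and 0.713 times in H2O2. In both ratios of reads the 2 letters lay close together and the groups were apart. The FOXA2 ratio was 1.42 times as high in H2O2 within letter H and 1.455 times within letter Q, and the FOXA3 ratio 1.59 and 1.66 times. The FOXA3 to FOXA2 ratio was 0.279 and 0.311 in mock and 0.312 and 0.355 in H2O2, a smaller gap. From deposited FPKM the log2 differences of the FOXA2 and FOXA3 ratios to FOXA1 were 0.35 and 0.61, beside 0.52 and 0.70 from reads. In FPKM the letters agreed less closely, and both ratios rose less within letter H than within letter Q. These ratios were chosen after the values were seen. Of the 28 pairs of the 8 factors, 12 had ratios whose groups did not overlap, counted in either direction. In CPM, 21.8% of all genes had both H2O2 libraries below both mock libraries, and 18.9% had both above. Of all genes 19.2% had a ratio to FOXA1 that was higher in both H2O2 libraries than in both mock libraries. That last share counts 1 direction, so it is not a background for the 12 pairs.

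**Figure D2:**
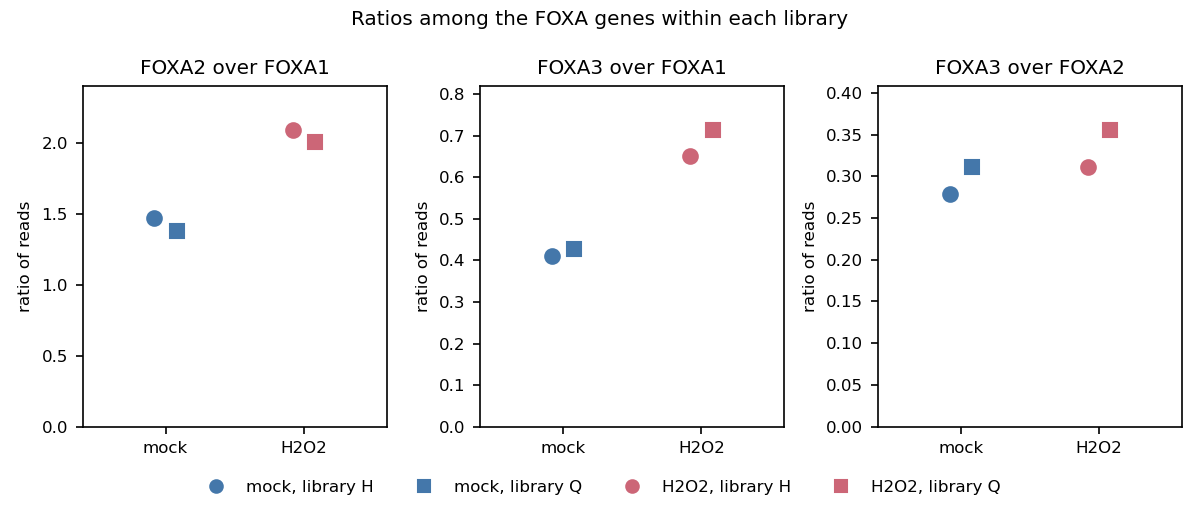
Ratio of reads between forkhead genes (vertical axes, from 0) within each library, with circles for letter H and squares for letter Q. FOXA3 over FOXA1 is 0.411 and 0.429 in the mock libraries and 0.652 and 0.713 in the H2O2 libraries, and FOXA2 over FOXA1 shows a like gap from 1.38 to 1.47 in mock and 2.01 to 2.09 in H2O2.

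ONECUT1, on chromosome 15, minus strand, measured 19.3 and 12.15 CPM in mock and 14.5 and 13.4 CPM in H2O2 (H, then Q). Both H2O2 values lay between the 2 mock values. The log2 difference was −0.17 (SE 0.29, edgeR, adjusted p = 0.873), with −0.41 within letter H and 0.14 within letter Q. PROX1, on chromosome 1, plus strand, measured 134 and 143 CPM in mock and 114 and 155.5 CPM in H2O2. The mock values lay between the 2 H2O2 values. Its log2 difference was −0.037 (SE 0.22, edgeR, adjusted p = 0.968), and the interval from −0.61 to 0.54 was the narrowest of the 8. It was 0.13 with limma on FPKM, 0.0095 without mock library Q and 0.17 without H2O2 library H.

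Read by letter, HNF4A, HNF4G, FOXA1 and CEBPA were lower in H2O2 within both letters, 4 of 8 beside 35.3% of all genes. FOXA2 and FOXA3 were higher within both, 2 of 8 beside 33.9%. ONECUT1 and PROX1 went opposite ways in the 2 letters, beside 30.9% of all genes. These shares lie near the background. In mock and in H2O2 alike, 7 of 8 factors had less RNA in Q than in H, beside 34.1% of all genes, and PROX1 was the exception. The median factor differed between Q and H by −0.81 in mock and −0.50 in H2O2, against 0.034 and 0.010 for all genes. The summed hepatocyte markers moved with the letter, from 21950.0 to 10010.0 CPM in mock and from 24030.0 to 15710.0 CPM in H2O2 (H to Q). Of the 10 markers, TTR, KRT8 and KRT18 were higher in Q in both groups and the other 7, with ALB, AFP and TF among them, lower. Their part in the result was not tested.

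**Figure D3:**
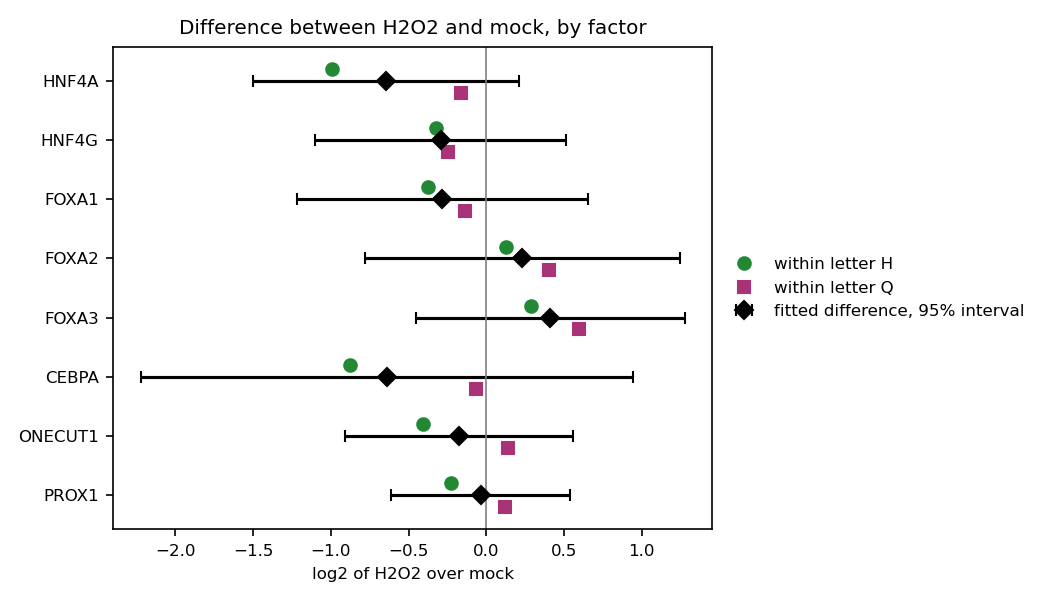
Log2 of H2O2 over mock (horizontal axis) for each factor: diamonds are the edgeR values with their 95% intervals, circles the difference within letter H and squares that within letter Q. All 8 intervals cover 0, from the widest in CEBPA (−2.22 to 0.94) to the narrowest in PROX1 (−0.61 to 0.54).

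Levels were compared between factors as the deposited FPKM over the exon number of the model. By name FPKM is reads scaled by transcript length and library size, but the deposited FPKM of HNF4A models behaved as a sum over exons. That was checked for HNF4A alone and assumed for the other factors. The 2 FOXA2 models, with 8352 and 8368 reads in mock library H, had 60.1 and 104 FPKM there. CEBPA, a gene of 1 exon, stood at 212, 71.1, 116 and 69.8 FPKM per exon (mock H, mock Q, H2O2 H, H2O2 Q). HNF4A, with 10 exons in its P1 model with the late end, stood at 115, 76.0, 66.8 and 69.1. On this scale they were the highest levels in each library, with HNF4A first in mock library Q and CEBPA first in the other 3, and their ranges overlapped. FOXA2 (17.6 to 33.0) and PROX1 (18.6 to 29.9) came next and did not differ beyond their spread. FOXA1 followed at 10.8 to 16.9 FPKM per exon. FOXA3 (5.99 to 12.35), ONECUT1 (7.09 to 10.6) and HNF4G (5.66 to 9.07) were the lowest and overlapped each other. In CPM per kilobase of the GENCODE v29 model, CEBPA was highest in all 4 libraries and HNF4G lowest in all 4. The lengths that were counted are not known. The 2 PROX1 models have 8240 and 3075 bases in GENCODE v29 but held 13003 and 12629 reads in mock library H. The places of HNF4A and PROX1 on that scale therefore depend on the length taken. HNF4A came next to CEBPA in 3 libraries but lay below FOXA2 in H2O2 library H, at 33.05 against 38.8. In FPKM per exon HNF4A was the higher there, at 66.8 against 33.0. PROX1 lay below FOXA1 in the H libraries (16.2 against 20.4 in mock, 13.9 against 15.7 in H2O2) and above it in the Q libraries. FOXA3 lay above PROX1 in H2O2 library H, at 14.7, and above FOXA1 in H2O2 library Q, at 10.6 against 10.35.

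HNF4A was tabulated under 7 models, and these share most of their exons. Of these, 6 begin at either P1 or P2, end early or late, or have or lack 30 bases at the end of exon 9. The seventh, NM_001258355, had the most reads and gave the CPM values above. It exceeded the P1 model with the late end and the 30 bases, NM_000457, by 461, 394, 316 and 294 reads and by 60.4, 45.4, 38.8 and 34.85 FPKM (mock H, mock Q, H2O2 H, H2O2 Q), and what sets it apart was not resolved here. Matched to GENCODE v29 (GRCh38, plus strand), the coding part of the first exon is at chr20:44401373-44401487 for P1 and at chr20:44355805-44355853 for P2, and the 30 bases are at chr20:44428458-44428487. Capitals mark the start codon.
HNF4A P1 first exon, coding part: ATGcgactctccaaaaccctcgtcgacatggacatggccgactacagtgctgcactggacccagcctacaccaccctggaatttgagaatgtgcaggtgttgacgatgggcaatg
HNF4A P2 first exon, coding part: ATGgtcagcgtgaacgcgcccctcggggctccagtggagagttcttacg
HNF4A exon 9 insert: gtgagtggccccgacccaggggacaggcag

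Models that start at P1 had 264, 16, 221 and 173 more reads than their partners that start at P2 (mock H, mock Q, H2O2 H, H2O2 Q). The same numbers came from 3 pairs of models, those with the insert, without it and with the early end. The 3 differences in FPKM agreed to 1e-07, and they ran the other way: P2 models were higher by 44.6, 65.95, 21.1 and 30.1 FPKM. So the first exon of P1 held at least 264, 16, 221 and 173 reads, and that of P2 at least 44.6, 65.95, 21.1 and 30.1 FPKM, if counts and FPKM are sums over exons. Read that way, both first exons were in use in each library. The excess of P2 was lower in both H2O2 libraries than in both mock libraries. Set against the mean exon of the P1 model, it was 38.9%, 86.8%, 31.6% and 43.6%, and the groups then overlapped. Models with the 30 bases had 185, 98, 110 and 100 more reads than those without, or 0.454%, 0.360%, 0.505% and 0.411% of the reads of the P1 model. In FPKM the models without the 30 bases were higher, by 8.35, 8.74, 5.12 and 7.34. The lengths of the models as counted are not known, so the share of reads due to 30 bases cannot be worked out. In GENCODE v29 the late-end models with the 30 bases have 6445 bases (P1) and 1470 bases (P2). In mock library H they held 40784 and 40520 reads. These percentages do not give how often the 30 bases were included. The sources used here do not say whether strand was used in counting, so antisense reads over these exons cannot be told apart.

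HNF4A models with the early end held 27.4%, 31.65%, 32.8% and 31.3% of the reads of the model with the late end (P1 models, in the same order). Mock library H, where HNF4A was highest, had the lowest share. PROX1 was tabulated under 2 models. They differ in the first exon and, in GENCODE v29, also in the length of the last. The higher model had 374, 644, 525 and 904 more reads than the other, or 2.88%, 3.77%, 4.42% and 4.88% of its own. That share was higher in both H2O2 libraries than in both mock libraries, while PROX1 as a whole overlapped. In CPM, 18.9% of all genes lay that way. How many pairs of models of other genes do so was not counted. The difference in reads was 1.40 times as large in H2O2 within letter H and 1.40 times within letter Q, before any scaling. FOXA2 also had 2 models, whose reads differed by 16, −10, −22 and −1.

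**Figure D4:**
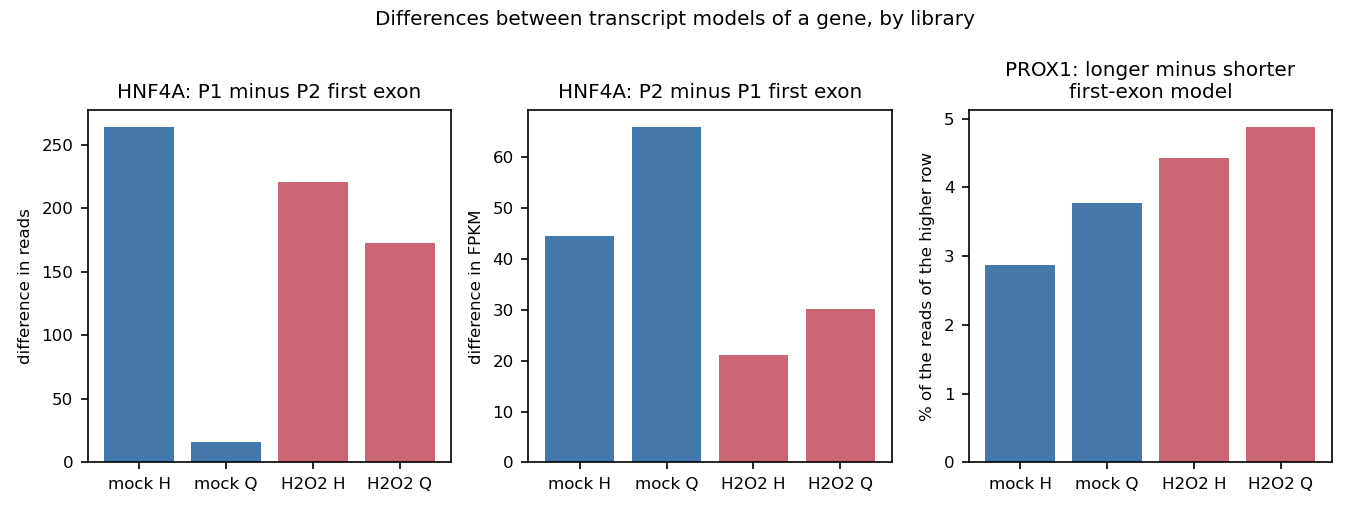
Differences between transcript models of a gene in each library (bars, from 0; blue for mock, red for H2O2): reads of HNF4A models starting at P1 minus P2, FPKM of P2 minus P1, and reads of the higher PROX1 model minus the lower as a percentage of the higher. The P1 bar of mock library Q, at 16 reads, is far below the other 3, and the PROX1 bars are 2.88% and 3.77% in mock and 4.42% and 4.88% in H2O2.

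Among 25 other liver-enriched transcription factors, 24 passed the filter on low reads and 0 passed the test, with 13 lower, 11 higher and a median of −0.039. NR0B2, a corepressor that can inhibit HNF4A, measured 2.32 and 3.66 CPM in mock and 0.530 and 1.56 CPM in H2O2 (−1.51, SE 0.59, edgeR, adjusted p = 0.68). KLF15, a zinc finger factor of fasting metabolism, measured 19.6 and 9.93 against 37.7 and 18.9 CPM (0.94, SE 0.48). CEBPB, a relative of CEBPA that acts in the acute phase response, measured 76.9 and 77.65 CPM in mock and 130.5 and 105 CPM in H2O2 (0.61, SE 0.20, edgeR, adjusted p = 0.68). It was named after its values were seen.

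Of 26 genes listed as HNF4A targets, 24 were tested and 0 passed, with 11 lower, 13 higher and a median of 0.095. The apolipoprotein gene APOA2 measured 82.2 and 53.7 CPM in mock and 359 and 121 CPM in H2O2 (1.82, SE 0.57, edgeR, adjusted p = 0.68). Both H2O2 values lay above both mock values, as in 18.9% of all genes. APOC2, another apolipoprotein gene, lay at 0.925 and 1.20 CPM in mock and 0.5105 and 0.277 CPM in H2O2 (−1.44, SE 0.43), and the urea cycle gene OTC at 0.761 and 0.185 against 0.992 and 0.906 CPM (1.02, SE 0.68). These last were low in every library. Within letter H the median target was −0.15 and within letter Q 0.41. The count of lower targets was 6 of 23 without mock library H, 9 of 23 without H2O2 library Q, 15 of 22 without mock library Q and 16 of 24 without H2O2 library H, so the side of the majority depended on the library left out.

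FOXA target genes, 12 of 12 tested, had 4 lower, 8 higher and a median of 0.16. CEBPA target genes, 12 of 13 tested, had 4 lower, 8 higher and a median of 0.26. The 2 lists share genes with each other and with the HNF4A list, and 0 of either passed. Without mock library Q, 8 of the 12 FOXA targets were lower. Albumin, ALB, had 5959 and 2602 CPM in mock and 8986 and 5207 CPM in H2O2 (0.73, SE 0.54), and APOB, the main protein of very low density lipoprotein, 1471 and 949 against 2098 and 1491 CPM (0.57, SE 0.35). The amino acid enzyme gene TAT measured 4.24 and 6.58 against 3.64 and 4.44 CPM (−0.42, SE 0.31). In ALB and APOB the H library was the higher in both groups, as it was for CEBPA and the FOXA genes.

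Genes linked to PROX1 and ONECUT1 were lower in 7 of 8 tested, beside 52.1% of all genes, with a median of −0.33, and 0 passed. All 7 were lower within both letters, beside 35.3% of all genes. NR0B2, given above, was among those that differed most, as was the nuclear receptor NR5A2, at 58.1 and 38.2 CPM in mock and 36.1 and 35.1 CPM in H2O2 (−0.44, SE 0.25). Coactivators and corepressors of these factors had 4 lower, 8 higher and a median of 0.085, with 12 of 12 tested and 0 passing, and without mock library H 7 were lower. PPARGC1A, a coactivator of HNF4A in fasting, measured 1.59 and 2.02 against 2.39 and 3.95 CPM (0.81, SE 0.36), NCOA1 34.2 and 38.5 against 24.0 and 29.6 CPM (−0.44, SE 0.20) and CREBBP 76.85 and 100.6 against 59.2 and 85.4 CPM (−0.29, SE 0.27). The antisense and intergenic neighbours looked for by name, 10 in all, matched 0 gene names of the tables.

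**Figure D5:**
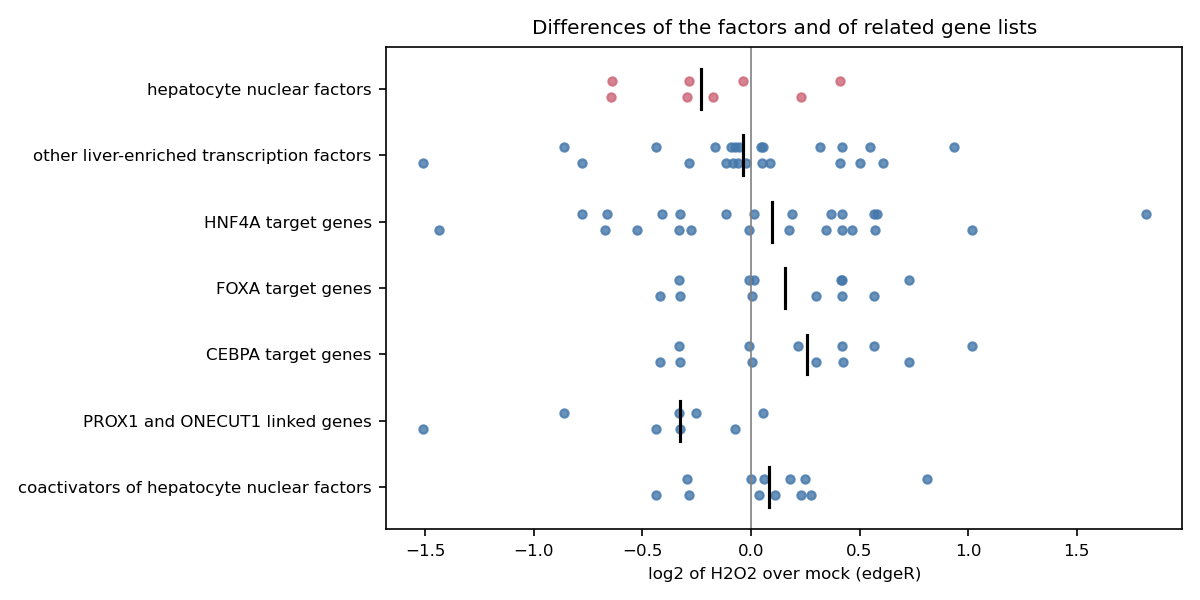
Log2 of H2O2 over mock from edgeR (horizontal axis) for the 8 factors and for each tested gene of 6 related lists, with a black line at each median. The factors run from −0.64 to 0.41 with a median of −0.23, while the medians of the HNF4A, FOXA and CEBPA target lists are 0.095, 0.16 and 0.26.

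Likeness of pattern was measured as the root mean square difference of centred log2 CPM over the 4 libraries, among 11315 mRNA genes of at least 5 CPM. For HNF4A the nearest genes were AGER (0.0225) and LPIN3 (0.0256), and 26 genes lay within 0.1. For CEBPA the nearest was GPR133 (0.0568), and 1 gene lay within 0.1, the fewest of the 8. For PROX1 they were ZNF765 (0.0171) and CEP350 (0.0176), with 303 within 0.1, the most. Nearest to FOXA1 were PGAP3 (0.0201) and SAPCD1 (0.0395), to FOXA2 FKBP8 (0.0155) and HNMT (0.0161), and to FOXA3 PEX7 (0.0206) and NR2F1 (0.0239). Those of HNF4G were RCAN3 (0.0190) and IL17RC (0.0202), and those of ONECUT1 were SEC11C (0.0120) and KCTD18 (0.0173). Among the factors themselves FOXA1 and HNF4G were the closest pair (0.0829), FOXA2 and FOXA3 the next (0.12), and CEBPA and PROX1 the farthest apart (0.81). With 4 libraries many genes lie this close, so the distances describe these libraries.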

How the data were processed

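RNA of 4 Huh7 libraries, 2 mock and 2 H2O2, was read from deposited tables that list, per the file headers, the read count and the FPKM of every transcript model. CASAVA, Bowtie 0.12.2, TopHat 1.3.3 and Cuffdiff are named in the submitters' processing notes. The sources used here do not name the counting program or annotation, or say whether strand was used. Mapped mates were taken as counts from the deposited alignment summaries.

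For each gene name the model with the most reads was used. Genes with at least 0.5 CPM in at least 2 libraries were tested, 21130 in all, with the 8 factors among them. The comparison of H2O2 with mock used edgeR 4.0.16 (quasi-likelihood, two-sided) and TMM scaling (factors 0.918 to 1.1), with treatment as the sole term and Benjamini-Hochberg adjustment at 5%. The SE is the log2 difference over the root of F. DESeq2 1.42.0 and limma 3.58.1 (on log2 of FPKM plus 1) were alternatives. The test was checked on simulated counts. Their spread between libraries was set below that of these data, whose common coefficient of variation was 0.286. The check therefore does not show how the test performs at the spread seen here. Within-letter values use CPM plus 0.1. Named genes were the 8 factors, the 3 largest differences of each list, and the 2 nearest patterns for each factor, and 2 genes that this rule names are not reported here. Factors and lists were chosen with earlier results of these data known. GENCODE v29 gave exon numbers and coding sequences, and RefSeq the promoters, which were in the table for 5 of 8 factors. FOXA2, HNF4G and PROX1 had none.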

Additional observations from a re-analysis of the deposited data

How the results depend on the processing

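Against 0 genes called, there were 9 with no filter, 171 with the DESeq2 Wald test, 25 with the letter as a replicate block and 0 to 6 on leaving out each library, with 6 without mock library Q. None of the factors was called in any of the 13 settings. With the block the lowest adjusted p was 0.196, in FOXA3 (0.44), followed by 0.211 in HNF4A (−0.58). The letters are not stated to pair the libraries. Over genes, the difference of H from Q in mock correlated with that in H2O2 at 0.61, as a hint from the data.

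The number of factors lower in H2O2, 6 of 8, was 2 to 6 on leaving out each library, with 2 without mock library H. HNF4A stayed lower in all 13 settings (−1.02 to −0.15) and FOXA3 higher in all 13 (0.068 to 0.85). On leaving out 1 library at a time the ranges of the others crossed 0: −0.59 to 0.044 for HNF4G, −0.65 to 0.19 for FOXA1, −0.17 to 0.77 for FOXA2, −1.26 to 0.43 for CEBPA, −0.47 to 0.19 for ONECUT1 and −0.28 to 0.17 for PROX1, which was also 0.13 with limma on FPKM. The log2 difference of the FOXA2 to FOXA1 ratio was 0.52 from reads and 0.35 from deposited FPKM, and that of FOXA3 to FOXA1 0.70 and 0.61, a setting chosen after seeing the data. The causes were not tested. With 2 libraries a group, the intervals of all 8 factors cover 0, and these data do not show that any factor was unaffected.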
